A study of Ambystoma mexicanum with 5 samples.

Results

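*Aldh1a3*, *Crabp2* and *Rarres1* are 3 genes, of retinoic acid synthesis, retinoic acid binding and retinoid response. They were profiled in sorted connective tissue cells from the lower arm dermis of uninjured axolotls. The count data list 99088 genes, of which 27710 had a count in any library. The 3 retinoid genes were chosen by symbol from the study's tables of genes called between posterior and anterior cells in these same libraries. Those tables pair ALDH1A3 with AMEX60DD003526, CRABP2 with AMEX60DD015718 and RARRES1 with AMEX60DD001823. The posterior-to-anterior differences of the 3 genes were therefore used to select them and are given as a description, with no test. All 3 were among the 20875 genes that passed the filter on low counts.

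Retinoic acid is made from vitamin A in 2 steps. Retinol is first oxidized to retinaldehyde, and enzymes of the Aldh1a family, to which *Aldh1a3* belongs, then oxidize retinaldehyde to retinoic acid. Crabp2 binds retinoic acid in the cytosol and delivers it to nuclear retinoic acid receptors. *Rarres1*, also called *Tig1*, encodes a membrane protein that was first found as a gene induced by a synthetic retinoid in human skin. Retinoic acid applied to a regenerating salamander limb gives its cells a more proximal and more posterior identity, and in salamanders *Rarres1* has been linked to proximal identity.

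The libraries comprised 3 from posterior and 2 from anterior cells, both uninjured and of the same genotype. All animals carried a transgene in which a mouse *Prrx1* enhancer (Mmu.Prrx1) drives nuclear TFP and the tamoxifen-dependent recombinase ERT2-Cre-ERT2, and a Caggs reporter with GFP between loxP sites before mCherry. Embryos were given 4-hydroxytamoxifen, which activates the recombinase, so that limb connective tissue cells and their descendants keep an mCherry label. Each replicate pooled the lower arm skin of 8 axolotls of 12 cm, or 16 lower arms, cut into posterior and anterior pieces with a gap between them, and mCherry-positive cells were sorted. Whether posterior and anterior libraries of 1 number came from the same axolotls is not stated in the sources used here. The libraries were made with a 3′ tag kit, in which each transcript is counted near its poly(A) end and long transcripts give no more tags than short ones. Levels are given as CPM, or counts per 1000000 counts of the library, on library sizes scaled by the TMM method. Library totals ran from 44317956 to 59062548 counts.

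*Aldh1a3* differed most between the positions. It had 6071, 6029 and 4010 counts in the posterior libraries, or 104, 103 and 74.6 CPM, against 13809 and 13641 counts in the anterior libraries, or 308 and 267 CPM. The lowest anterior library was 2.58 times the highest posterior one, a separation that the choice of the genes from calls in this contrast favours. The level was 93.7 ± 16.5 CPM (SD, n = 3) in posterior and 288 ± 28.9 CPM (SD, n = 2) in anterior cells. The log2 fold change, posterior over anterior, was -1.62 (standard error 0.17). Posterior replicate 3 was the lowest of all libraries, and the highest posterior library was 1.39 times this value.

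*Crabp2* was the most abundant of the genes in anterior cells. It had 11343, 11990 and 13627 counts in the posterior libraries, or 193, 205 and 254 CPM, against 20485 and 24852 counts in the anterior libraries, or 457 and 487 CPM. Here the lowest anterior library was 1.80 times the highest posterior one. The level was 217 ± 31.9 CPM (SD, n = 3) in posterior and 472 ± 21.0 CPM (SD, n = 2) in anterior cells, and the log2 fold change was -1.12 (standard error 0.14). Posterior replicate 3, which had the least *Aldh1a3*, had the most *Crabp2* of the posterior libraries.

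*Rarres1* was higher in posterior cells. It had 16572, 17746 and 14041 counts in the posterior libraries, or 283, 303 and 261 CPM, against 6213 and 7666 counts in the anterior libraries, or 139 and 150 CPM. The lowest posterior library was 1.74 times the highest anterior one. The level was 282 ± 21.0 CPM (SD, n = 3) in posterior and 144 ± 8.16 CPM (SD, n = 2) in anterior cells, and the log2 fold change was 0.97 (standard error 0.13). The synthesis gene *Aldh1a3* and the binding gene *Crabp2* were thus higher in anterior cells, and *Rarres1* was higher in posterior cells. *Nr2f1*, another retinoid-responsive gene described below, was higher in anterior cells. All 3 genes were expressed at both positions, at 74.6 CPM or more in every library.

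**Figure D1:**
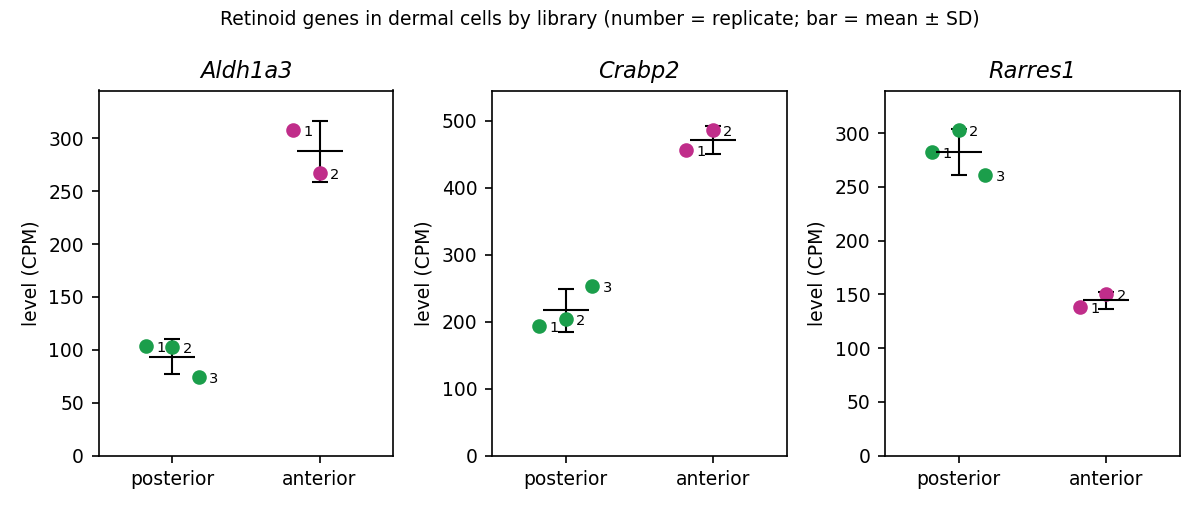
Level in CPM (y axis) of *Aldh1a3*, *Crabp2* and *Rarres1* in the 3 posterior and 2 anterior libraries (x axis), with 1 point for each library numbered by replicate, and the mean ± SD in black. *Aldh1a3* and *Crabp2* lie at or below 104 and 254 CPM in posterior and at or above 267 and 457 CPM in anterior cells. *Rarres1* lies at or above 261 CPM in posterior and at or below 150 CPM in anterior cells. The choice of the genes from calls in this contrast favours such a separation.

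The order of the genes differed between positions. In posterior cells *Rarres1* was the highest, above *Crabp2* and *Aldh1a3* in each of the 3 libraries, although in posterior replicate 3 it had only 1.03 counts for each of *Crabp2*. In anterior cells *Crabp2* was the highest, followed by *Aldh1a3* and then *Rarres1*, in both libraries. Among the 20875 genes tested, *Crabp2* ranked 575 in posterior and 287 in anterior cells. *Aldh1a3* ranked 1198 in posterior and 425 in anterior cells, and *Rarres1* ranked 444 in posterior and 823 in anterior cells. Averaged over the positions, 1.78% of genes tested were more abundant than *Crabp2*, 2.80% were more abundant than *Rarres1*, and 3.09% were more abundant than *Aldh1a3*. Summed over the 3 genes, the level was 580, 611 and 589 CPM in the posterior libraries, against 904 and 904 CPM in the anterior libraries. *Aldh1a3* and *Crabp2* were chosen from genes called higher in anterior cells, and *Rarres1* from genes called higher in posterior cells. This choice favours the changes of order and rank and the higher anterior sum.

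Ratios of counts within a library do not depend on how libraries are scaled. *Rarres1* had 2.73, 2.94 and 3.50 counts for each count of *Aldh1a3* in the posterior libraries, against 0.450 and 0.562 in the anterior libraries. This ratio was above 1 in all posterior and below 1 in both anterior libraries. *Rarres1* was chosen from genes called higher in posterior cells, and *Aldh1a3* and *Crabp2* from genes called higher in anterior cells. A difference of the *Rarres1* ratios between positions is therefore built in. For each count of *Crabp2*, *Rarres1* had 1.46, 1.48 and 1.03 counts in the posterior libraries, against 0.303 and 0.308 in the anterior libraries. The ratio of the 2 anterior genes differed less. *Aldh1a3* had 0.535, 0.503 and 0.294 counts for each count of *Crabp2* in the posterior libraries, against 0.674 and 0.549 in the anterior libraries. The difference in the mean log2 ratio, posterior minus anterior, was -0.50 for *Aldh1a3* over *Crabp2*, with an SD between replicates of 0.47 in posterior (n = 3) and 0.21 in anterior cells (n = 2). It was 2.60 for *Rarres1* over *Aldh1a3*, with SDs of 0.18 in posterior and 0.23 in anterior cells, and 2.09 for *Rarres1* over *Crabp2*, with SDs of 0.30 in posterior and 0.02 in anterior cells.

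**Figure D2:**
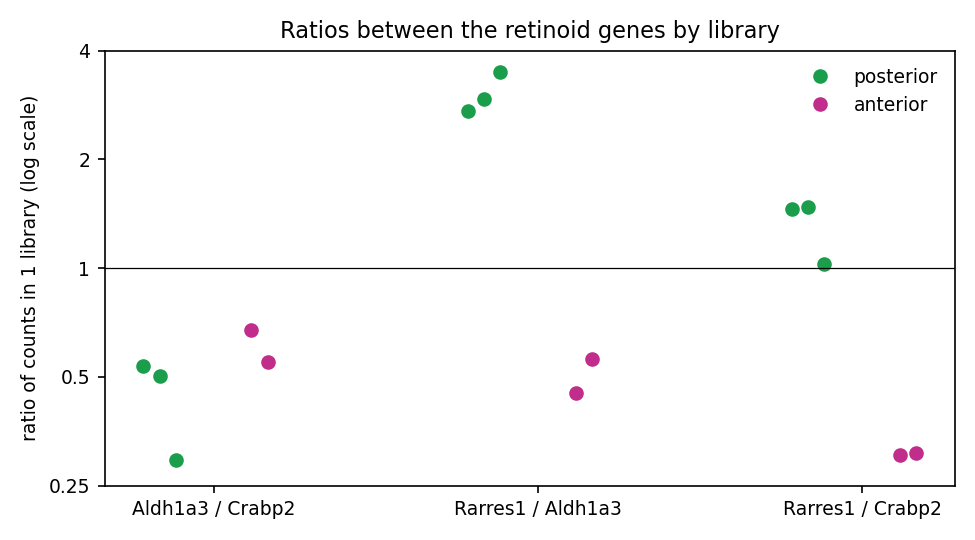
Ratio of the counts of 2 retinoid genes within 1 library (y axis, log scale) for the 3 pairs of genes (x axis), with 1 point for each posterior (green) and anterior (magenta) library. *Rarres1* over *Aldh1a3* lies between 2.73 and 3.50 in posterior and at 0.450 and 0.562 in anterior libraries. *Aldh1a3* over *Crabp2* comes close between positions, at 0.535 in the highest posterior and 0.549 in the lowest anterior library. The choice of the genes from calls in this contrast builds in the difference of the *Rarres1* ratios.

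Abundant genes seldom differed as much between the positions, which the choice of the retinoid genes from calls in this contrast builds in. Of 1130 other genes with a mean level of 100 CPM or more, the median absolute log2 fold change was 0.16. Of these, 5 had an absolute log2 fold change at least as large as that of *Aldh1a3*, 24 one at least as large as that of *Crabp2*, and 34 one at least as large as that of *Rarres1*. The spread between libraries of 1 position, as an SD of log2 CPM, was 0.24 for *Aldh1a3*, 0.17 for *Crabp2* and 0.10 for *Rarres1*, beside a median of 0.13 for these genes. *Aldh1a3* was thus more variable between replicates than 81.9% of them, *Crabp2* than 67.4% and *Rarres1* than 32.1%. Of the genes that the study's tables list and that were tested, *Aldh1a3* and *Crabp2* ranked 47 and 87 of 146 anterior genes by the size of the fold change, and *Rarres1* ranked 103 of 149 posterior genes. By mean level they ranked 22, 12 and 21 in the same lists.

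**Figure D3:**
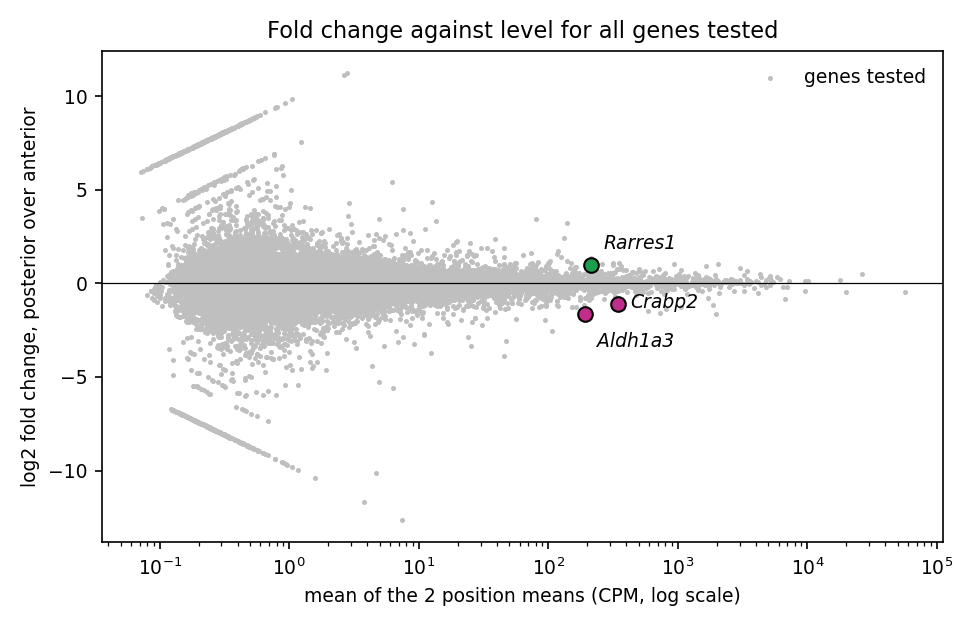
Log2 fold change, posterior over anterior (y axis), against the mean level in CPM (x axis, log scale) for the 20875 genes tested (grey), with the retinoid genes marked. *Rarres1* (0.97), *Crabp2* (-1.12) and *Aldh1a3* (-1.62) lie outside the narrow band that most genes of their level fill, where the median absolute value is 0.16. Their choice from calls in this contrast builds this in.

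At a false-discovery rate of 0.01, edgeR's quasi-likelihood test called 53 of 20875 genes, or 0.254%, and DESeq2 called 300 of 20741, or 1.45%. All 3 retinoid genes were among the calls of both. They were selected on calls in this same contrast and these same libraries, so that nothing is read from it. The edgeR calls depended on which library was left out. With posterior replicate 1, 2 or 3 left out, 5, 2 and 3 genes of all those tested were called, and the 3 retinoid genes were not among them. With anterior replicate 1 or 2 left out, 62 and 55 genes were called, *Aldh1a3* and *Crabp2* among them but not *Rarres1*. The fold changes moved little over the same 5 fits, from -1.72 to -1.47 for *Aldh1a3*, from -1.23 to -1.04 for *Crabp2* and from 0.91 to 1.03 for *Rarres1*.

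Of a list of 41 genes for retinoid synthesis, binding, degradation, reception and response, 4 could be paired with an identifier, namely the 3 retinoid genes and *Nr2f1* (AMEX60DD042580). *Nr2f1* encodes a nuclear receptor that retinoic acid induces in mammalian embryonal carcinoma cells and that represses transcription through retinoic acid response elements. It had 506, 456 and 574 counts in the posterior libraries, or 8.63, 7.79 and 10.7 CPM, against 1332 and 1335 counts in the anterior libraries, or 29.7 and 26.2 CPM. The log2 fold change was -1.63 (standard error 0.24), beside -1.62 for *Aldh1a3*. *Nr2f1* thus differed in the opposite direction to *Rarres1*, the other gene of response that was matched. The level averaged 9.03 ± 1.49 CPM (SD, n = 3) in posterior and 27.9 ± 2.53 CPM (SD, n = 2) in anterior cells. *Nr2f1* carries a symbol because the study's tables list it, so that its difference is also a description. The other 37 genes of the list, among them the retinoic acid receptors and the degrading enzymes *Cyp26a1*, *Cyp26b1* and *Cyp26c1*, were not analysed here.

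The genes with the most similar pattern were sought among those with a symbol in the study's tables, by Pearson's r of log2 CPM over the 5 libraries. Between the retinoid genes themselves, r was 0.90 for *Aldh1a3* and *Crabp2*, -0.94 for *Aldh1a3* and *Rarres1*, and -0.98 for *Crabp2* and *Rarres1*. The r values describe 5 libraries that share the split between positions. Many genes reach a high value over so few libraries, and 426 of the other 20874 genes tested had an r of 0.95 or more with *Aldh1a3*, 394 with *Crabp2* and 258 with *Rarres1*. Genes without a symbol were not named, and some lay closer than the named ones. For *Rarres1*, 8 genes tested reached the r of its nearest named gene, that gene included. For *Aldh1a3* and *Crabp2* the nearest named gene was also the nearest of all genes tested.

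*Aldh1a3* was followed most closely by *Slc6a2* (r = 0.997), a noradrenaline transporter, *Gfra2* (0.996), a neurturin receptor, *Chst12* (0.996), a sulfotransferase of chondroitin, *Corin* (0.995), a membrane protease, and *Sema3f* (0.995), a secreted guidance protein. *Slc6a2* had 434, 350 and 223 counts in the posterior libraries, against 2213 and 1787 in the anterior libraries, with the lowest count in posterior replicate 3 as for *Aldh1a3*. *Crabp2* was followed by *Pid1* (0.996), *Dhrs11* (0.995), a short-chain dehydrogenase that reduces ketosteroids, *Crispld2* (0.994), a secreted glycoprotein, the homeobox gene *Hoxc6* (0.992) and *Slc16a10* (0.990), a transporter of aromatic amino acids. *Hoxc6* had 61, 50 and 126 counts in the posterior libraries, against 554 and 646 in the anterior libraries, with the highest posterior count in replicate 3 as for *Crabp2*. Posterior replicate 3 was the lowest of the posterior libraries in all 5 genes nearest to *Aldh1a3* and the highest in all 5 nearest to *Crabp2*, a feature that their choice by r favours.

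*Rarres1* was followed by the fucosyltransferase gene *Fut3* (r = 0.995), the BMP antagonist *Grem1* (0.995), the zinc finger gene *Znf10* (0.995), *Mst1* (0.994), which encodes a protein related to hepatocyte growth factor, and the caveolin gene *Cav3* (0.991). *Mst1* was the nearest to *Rarres1* in the size of the difference, with 8660, 8469 and 6557 counts in the posterior libraries, against 2868 and 3439 in the anterior libraries. *Grem1* had 14832, 17074 and 11547 counts in the posterior libraries, against 1211 and 1363 in the anterior libraries. In both *Grem1* and *Rarres1* posterior replicate 2 was the highest and replicate 3 the lowest of the posterior libraries, which the choice by r favours. In *Mst1* posterior replicate 1 was the highest. *Znf10* and *Cav3* had at most 2 counts in an anterior library, so that their r rests on few counts.

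**Figure D4:**
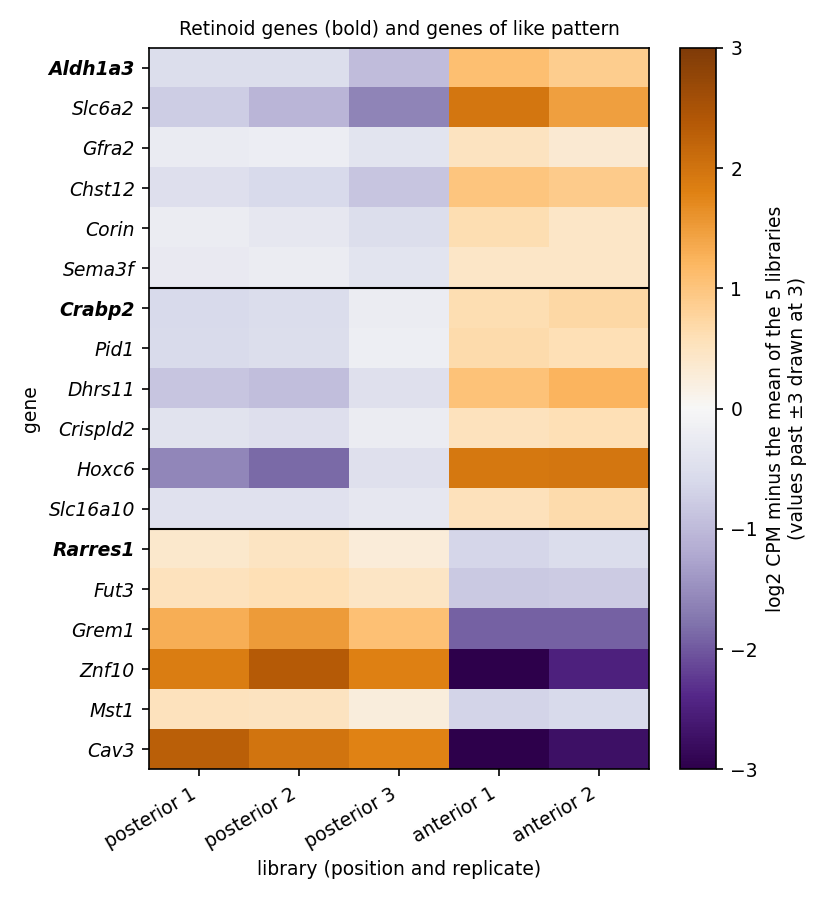
Log2 CPM minus the mean of the 5 libraries (colour) in the 3 posterior and 2 anterior libraries (columns). Rows are each retinoid gene (bold) and the 5 genes of most similar pattern among those with a symbol in the study's tables. The rows share the split between positions, which their choice from those tables builds in, with an r of 0.990 or more to their retinoid gene. Those under *Aldh1a3* have their lowest value in posterior replicate 3, which their choice by r favours.

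The genomic surroundings of the retinoid genes were described by the 30 identifiers on either side of each, since identifiers are numbered along the assembly. Of these neighbours, 76 were tested, 5 of which the study's tables list, beside 295 listed among all 20875 genes tested. Of the other 71, 0 were called by edgeR, DESeq2 or limma-voom at that rate of 0.01. Leaving out the listed genes, which the study called with DESeq2 in this contrast, favours this 0. In edgeR 4 of the 71, or 5.63%, had an unadjusted p under 0.05. With the listed neighbours kept, 2 of 29 near *Aldh1a3*, 4 of 26 near *Crabp2* and 3 of 21 near *Rarres1* had such a p. The share over all genes tested, 7.55%, also includes listed genes, so it is not on a like basis with the 5.63%. Of the 71 unlisted neighbours, 30 had a higher level in posterior and 41 a higher level in anterior cells. These posterior and anterior numbers were 16 and 11 near *Aldh1a3*, 9 and 15 near *Crabp2*, and 5 and 15 near *Rarres1*. Of all genes tested, 51.4% were higher in anterior cells. The median log2 fold change of the 71 was -0.03, beside -0.02 over all genes tested.

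Among the 5 listed neighbours, both of those near *Aldh1a3* were also anterior. *Adamts17*, which encodes a secreted metalloprotease, lies 9 identifiers from *Aldh1a3* and had 663, 783 and 667 counts in the posterior libraries, against 1103 and 1965 in the anterior libraries. *Synm*, which encodes the intermediate filament protein synemin, lies 15 identifiers away and had 2232, 2060 and 2273 counts in the posterior libraries, against 2746 and 3599 in the anterior libraries. In the RefSeq annotation of the assembly UKY_AmexF1_1, 3 coding genes separate *Aldh1a3* from *Adamts17* and 7 separate it from *Synm*, on the same side. Along the identifiers, those tested between *Aldh1a3* and *Adamts17* had log2 fold changes of 0.44, 0.13, 0.10 and 1.31. Their standard errors were 0.26, 0.37, 0.15 and 0.90, in the same order. Near *Crabp2*, LOC112544205 had 742, 415 and 675 counts in the posterior libraries, against 1187 and 1425 in the anterior libraries. *Lrrc71*, 30 identifiers from *Crabp2*, had 0 counts in each posterior library, against 95 and 106 in the anterior libraries, and the fitted value plotted for such a gene depends on the prior count. In the RefSeq annotation 9 coding genes lie between *Lrrc71* and *Crabp2*. These 4 listed neighbours differed in the direction of the retinoid gene in whose window they lie, and did not pass edgeR's threshold.

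*Rarres1* had a listed neighbour of the opposite direction. *Ptx3*, which encodes the secreted pattern recognition protein pentraxin 3, lies 15 identifiers away, with 7 coding genes between them in the RefSeq annotation. It had 42352, 38828 and 26434 counts in the posterior libraries, against 74176 and 68788 counts in the anterior libraries. Its mean level was 626 ± 120 CPM (SD, n = 3) in posterior and 1502 ± 218 CPM (SD, n = 2) in anterior cells. Its log2 fold change was -1.26 (standard error 0.16), beside 0.97 for *Rarres1*. *Ptx3* was the 1 neighbour that edgeR called, and it too was listed for this contrast. The direct neighbours of *Rarres1*, 1 identifier to either side, had log2 fold changes of -0.11 (standard error 0.43) and -0.20 (standard error 0.49).

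**Figure D5:**
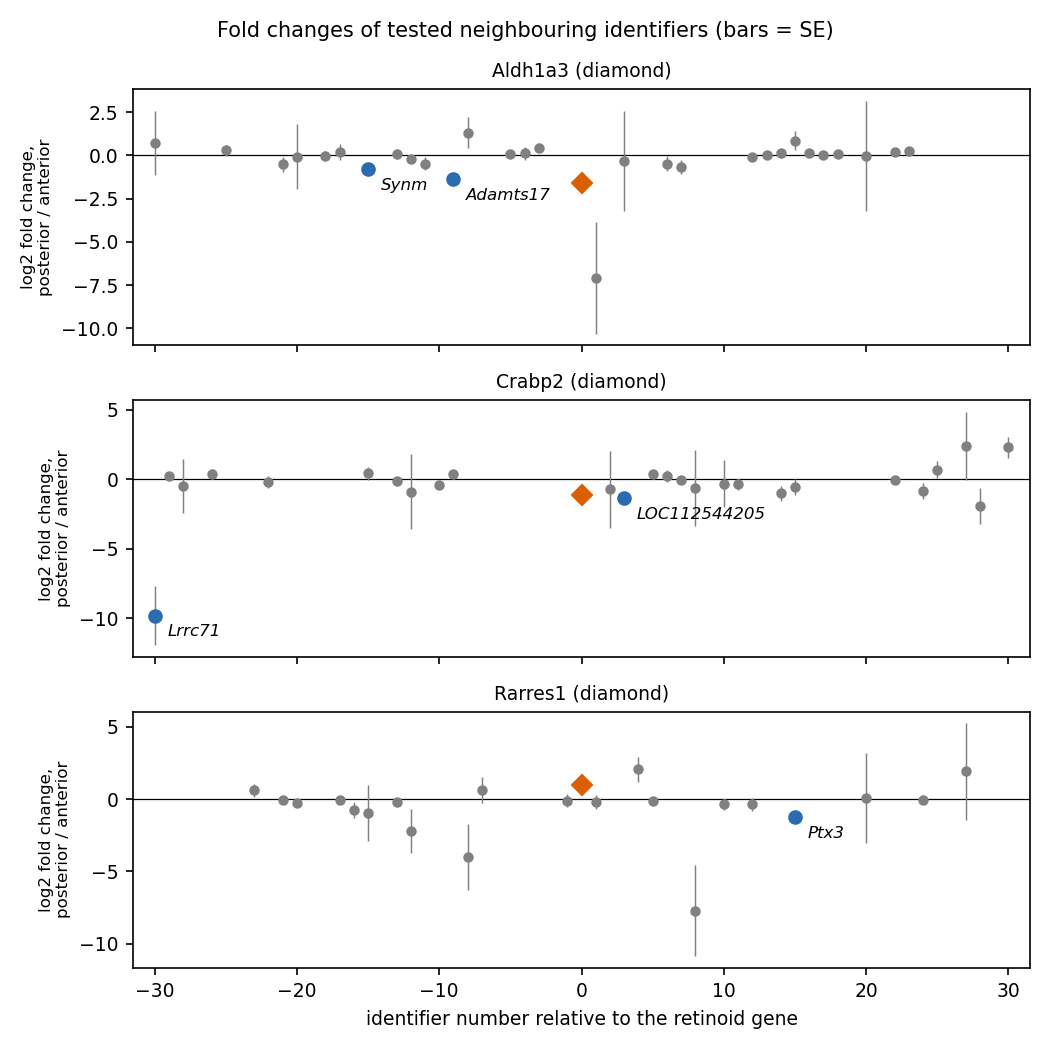
Log2 fold change, posterior over anterior (y axis, bars are standard errors), of the tested genes among the 30 identifiers on either side of *Aldh1a3*, *Crabp2* and *Rarres1* (x axis, identifier number relative to the retinoid gene, which is the diamond). Blue points are the 5 neighbours in the study's tables. *Adamts17* and *Synm* lie on the same side of 0 as *Aldh1a3*, and *Ptx3* (-1.26) lies opposite *Rarres1* (0.97).

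In bulk libraries fewer cells of a type and less RNA per cell cannot be told apart. The sort for mCherry, which labels cells of the *Prrx1* lineage, is meant to leave out epidermal, immune and other cells outside that lineage. Transcripts of epidermal and immune markers were still counted in these libraries, at the levels given below. Marker lists could be matched only in part, because a gene has a symbol here only if the study's tables list it as different between these positions. Markers that did not differ are therefore missing, and a difference in the matched markers and in their sums is built in. Of 14 epidermal markers 6 were matched, to 7 identifiers, and 6 of these were more abundant in posterior cells, 1 in anterior cells. Their summed level was 878, 634 and 724 CPM in the posterior libraries, against 318 and 298 CPM in the anterior libraries. *Krt17* had 0 counts in both anterior libraries and *Krt18* had 0 counts in the 3 posterior libraries. Of 12 connective tissue markers 5 were matched, with a summed level of 6915 to 7906 CPM in posterior and 11477 to 12890 CPM in anterior cells, and 4 of the 5 were higher in anterior cells. Of 6 immune markers only *Ctss* was matched, at 14.2 to 40.6 CPM in posterior and 6.14 to 12.8 CPM in anterior libraries. Of 3 pericyte markers only *Rgs5* was matched, at 9.81 to 14.6 CPM in posterior and 26.9 to 36.2 CPM in anterior libraries. Of 6 markers of Schwann and pigment cells *Ngfr* and *Ednrb* were matched. They summed to 17.5 to 24.4 CPM in posterior and 54.9 to 58.6 CPM in anterior libraries. The part of these cell types in the levels of the retinoid genes was not tested. The endothelial and muscle lists had no matched gene.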

How the data were processed

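Dermal cells were profiled with a QuantSeq 3′ kit from 20.25 ng of RNA. Per the study's methods, Trimmomatic 0.39 trimmed the reads, HISAT2 aligned them to the assembly AmexG_v6.0-DD, and featureCounts summed them per gene. The counting of multiply aligned reads is not stated, so that close paralogues could share reads. The authors deposited raw counts per gene and library, without normalization. Libraries were matched to positions by the column number in the sample labels. The columns of fold changes and p-values in the study's tables were not used.

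Counts were filtered by filterByExpr, scaled by TMM and fitted with the quasi-likelihood test of edgeR 4.0.16 in R 4.3.3, with position as the only term and Benjamini-Hochberg adjustment over all 20875 genes. The standard error is the log2 fold change divided by the square root of F. A count of 3 corresponds to 0.0508 to 0.0677 CPM, counting error only. Likeness used log2 CPM with a prior count of 2. The alternatives were DESeq2 1.42.0, limma-voom (limma 3.58.1), other scalings, no filter, a block for replicate number and each library left out. The edgeR step was tested on simulated data. Symbols come from the study's tables, which pair 283 of 306 identifiers. The RefSeq table of UKY_AmexF1_1 gave gene order only. Named genes were the 3 retinoid genes, matched genes of the pathway and marker lists, the 5 most similar listed genes for each retinoid gene, and listed genes within 30 identifiers. Members and lists were chosen with earlier results of these data known.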

Additional observations from a re-analysis of the deposited data

How the results depend on the processing

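The log2 fold changes of *Aldh1a3*, *Crabp2* and *Rarres1* kept their direction and stayed within 1 SD between replicates under every alternative run. The kept direction is favoured by the choice of the genes from calls in this contrast. The levels of the 2 positions did not overlap for these genes, so leaving out 1 library could hardly turn it. The mean levels of the 3 genes also stayed within 1 SD. With 1 library left out this was bound to happen, because a mean of 2 or 3 values cannot move further. Over the 6 other tests, scalings, filters and blocks, *Aldh1a3* ranged from -1.62 to -1.47, *Crabp2* from -1.25 to -1.10 and *Rarres1* from 0.96 to 1.02. The count of genes past a false-discovery rate of 0.01, 53 in edgeR, was 300 with DESeq2, 337 with no filter on low counts and 127 at a rate of 0.05, and lay between 2 and 62 when 1 library at a time was omitted. With the replicate block it was 130 of 20875 genes tested, the 3 retinoid genes among them. They were selected on calls in this contrast and these libraries, so nothing is read from that. Posterior replicate 3 has no anterior library of its number, so under the block it does not inform the difference between positions. The change of replicate 2 from replicate 1 in posterior cells had an r of -0.03 with that in anterior cells over all genes tested (genes are not independent). Genes of few counts weigh as much as others in this r, so it cannot exclude shared animals. The numbers were not taken as pairs because the sources used here do not state that they are. With 10 identifiers on either side in place of 30, 0 neighbours of *Rarres1* passed in edgeR, since *Ptx3* lies outside that window. The 5 genes nearest to *Aldh1a3* and to *Crabp2* were the same with a prior count of 0.5 and with library totals, and for *Rarres1* 3 and 4 of the 5 were shared. For *Lrrc71*, *Krt18*, *Cav3*, *Znf10*, *Adamts17*, *Krt17* and 1 of the *Krt19* identifiers, 20 combinations of a gene and an alternative moved the fold change by more than the spread between replicates, and 0 turned its direction. The 2 anterior libraries limit the precision of each anterior level.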

Other observations

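The identifier after *Aldh1a3*, AMEX60DD003527, to which the study's tables give no symbol, had 0 counts in each of the 3 posterior libraries, against 14 and 16 counts in the anterior libraries. The identifier 4 places after *Rarres1*, AMEX60DD001827, had 289, 129 and 352 counts in the posterior libraries, against 13 and 95 counts in the anterior libraries. Its log2 fold change was 2.08 (standard error 0.86). Both were picked after their values were seen, and edgeR called neither at a false-discovery rate of 0.01.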
